A study of Mus musculus with 18 samples.

Results

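Gp2, Ccl20, Ccl6, Ccl9, Tnfaip2, Sox8, Pglyrp1 and Marcksl1 are 8 mouse genes known from microfold cells, and they were followed here in RNA-seq of sorted medullary thymic epithelial cells (mTECs). They were chosen by symbol, and all 8 were found, among 49585 genes in the Aire and Fezf2 count tables and 21969 in the Chd4 table. The 18 libraries form 6 groups of 3. In the C57BL/6 strain these are WT mice serving as controls for Aire, mice labelled Aire KO, a separate set of WT mice serving as controls for Fezf2, and mice labelled Fezf2 KO. On a mixed C57BL/6x129P2 background the control is Chd4 flox/flox without a Cre, and the conditional knockout (cKO) is Chd4 flox/flox with Foxn1-Cre, a driver active in thymic epithelium, cortical as well as medullary. The column names call the Fezf2 mutants Fezf2cKO while the sample labels say Fezf2 KO, so whether that deletion was conditional is not settled by the sources used here. The labels give no age, no deleted exon and no statement on whether the triplicates came from different animals, so p values reflect only the scatter among these libraries, which may be technical. Within a group the libraries are called A, B and C after barcode order, which pairs nothing across groups.

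Microfold (M) cells sit in the epithelium over the lymphoid follicles of the gut and carry luminal antigen to the immune cells below. They form when the cytokine RANKL engages its receptor RANK on epithelial precursors. RANK signals through NF-kB and turns on the Ets factor Spib and the SoxE factor Sox8. The medulla of the thymus depends on the same RANK signal, and a small fraction of mTECs has been described that takes on the M cell program, one of several mTEC subsets resembling cells of peripheral tissues. Gp2 is a lipid-anchored glycoprotein on the M cell surface that binds bacterial pili. Ccl20 attracts cells carrying Ccr6, and Ccl6 and Ccl9 are mouse CC chemokines that act on Ccr1. Pglyrp1 is a secreted protein that binds bacterial peptidoglycan, and Tnfaip2 and Marcksl1 act at the membrane and the actin skeleton. Aire and Fezf2 are nuclear regulators of peripheral-tissue gene expression in mTECs, and Chd4 is the ATPase of the NuRD chromatin-remodelling complex.

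All 8 genes are protein coding, and their start and end in the tables were those of the GRCm38 annotation. Gp2 spans chr7:119442537-119459285 on the minus strand, and Pglyrp1 spans chr7:18871331-18890459 on the plus strand of the same chromosome. Ccl6 (chr11:83587882-83593087) and Ccl9 (chr11:83572919-83578636) are neighbours on the minus strand. Ccl20 lies at chr1:83116766-83119167 and Tnfaip2 at chr12:111442469-111455018, both on the plus strand. Sox8 is on the minus strand at chr17:25565892-25570686, and Marcksl1 on the plus strand at chr4:129513581-129515985. RefSeq promoters (GRCm38.p6) were matched for 8 of 8 genes. The 5 below belong to the surface protein, the chemokines and the peptidoglycan-binding protein, each of which was called lower in at least 1 comparison. Each is the 250 bases before the RefSeq start, 5′ to 3′ on the gene's strand, and capitals mark matches on either strand to TATAAA (the TATA box), GAGGAA (a core bound by Ets factors such as Spib) or the kappaB consensus (bound by NF-kB). The regions are chr7:119459273-119459522 for Gp2, chr1:83116516-83116765 for Ccl20, chr11:83593088-83593337 for Ccl6, chr11:83578637-83578886 for Ccl9 and chr7:18884440-18884689 for Pglyrp1. For Gp2, Pglyrp1 and Tnfaip2 the RefSeq start lies inside the gene as the count tables span it.
Gp2: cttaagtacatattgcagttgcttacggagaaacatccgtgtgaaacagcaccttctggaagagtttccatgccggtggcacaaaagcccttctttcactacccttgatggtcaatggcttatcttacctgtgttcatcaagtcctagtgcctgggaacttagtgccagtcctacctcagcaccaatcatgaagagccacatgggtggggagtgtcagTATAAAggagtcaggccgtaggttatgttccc
Ccl20: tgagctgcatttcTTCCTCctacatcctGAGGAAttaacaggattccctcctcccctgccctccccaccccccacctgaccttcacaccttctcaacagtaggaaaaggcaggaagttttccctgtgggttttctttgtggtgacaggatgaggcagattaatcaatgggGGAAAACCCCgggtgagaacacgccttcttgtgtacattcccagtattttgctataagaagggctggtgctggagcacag
Ccl6: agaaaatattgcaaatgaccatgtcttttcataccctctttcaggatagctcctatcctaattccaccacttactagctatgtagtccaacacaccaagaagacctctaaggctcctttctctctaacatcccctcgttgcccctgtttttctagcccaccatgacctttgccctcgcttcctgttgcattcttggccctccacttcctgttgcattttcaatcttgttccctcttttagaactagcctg
Ccl9: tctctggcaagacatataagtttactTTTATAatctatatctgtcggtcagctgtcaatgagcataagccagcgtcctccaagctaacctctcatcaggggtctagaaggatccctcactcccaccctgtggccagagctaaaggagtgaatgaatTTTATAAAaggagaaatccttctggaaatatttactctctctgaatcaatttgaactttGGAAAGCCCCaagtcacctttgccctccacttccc
Pglyrp1: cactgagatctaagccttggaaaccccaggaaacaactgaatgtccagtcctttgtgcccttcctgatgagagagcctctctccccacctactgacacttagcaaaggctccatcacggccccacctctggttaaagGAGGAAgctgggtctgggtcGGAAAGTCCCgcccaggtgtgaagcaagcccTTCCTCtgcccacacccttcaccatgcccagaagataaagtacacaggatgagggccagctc
Position -1 is the base just before the start, and a match is placed by its leftmost base. The Gp2 promoter holds TATAAA at -32 and none of the other motifs. That of Ccl20 holds GAGGAA at -237 and -222 and a kappaB match at -80. That of Pglyrp1 holds GAGGAA at -113 and -62 and a kappaB match at -93. Ccl9 has a kappaB match at -35 and TATAAA at -224, -94 and -92, the last pair overlapping on opposite strands. Tnfaip2 has a kappaB match at -24 and Marcksl1 has GAGGAA at -62, while Ccl6 and Sox8 hold none of these letters in this window. Among all 32851 RefSeq promoters of this length, 12.4% held TATAAA, 23.3% GAGGAA and 7.25% the kappaB consensus. TGACTCA, the AP-1 motif, was also searched and was found in none of the 8 promoters, against 4.46% of all. A match is a description of the sequence, not a bound site.

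Depth ran from 3571570 to 17220157 exon reads per library, with the deepest library Chd4 cKO B. The targeted genes were checked first. Fezf2 was 570 to 735 CPM (exon reads scaled to the TMM-adjusted size of the library) in its controls and 8.44 to 23.4 in the Fezf2 KO libraries. Chd4 was 55.4 to 66.5 CPM in the controls and 24.6 to 30.2 in the cKO libraries. Aire transcript was 1810 to 2302 CPM in the WT libraries and 3737 to 4088 in those labelled Aire KO, higher and not lower, and since the labels do not say which part of the gene was deleted, these counts do not check that label. Fezf2 was also called higher in Chd4 cKO (592 to 920 CPM, edgeR adjusted p = 6.55e-04) and with the Aire KO label (626 to 874 CPM, edgeR adjusted p = 0.0413). Aire was called lower in Chd4 cKO (1033 to 787 CPM, edgeR adjusted p = 0.00294) and was not called in Fezf2 KO (edgeR adjusted p = 0.337). Chd4 was called in neither the Aire nor the Fezf2 comparison. The mTEC marker list (Epcam, keratins, Foxn1, claudins, Cd80, Cd40 and MHC class II genes) had reads for 12 of 12 genes in every group. Its summed level was 46316 to 56772 CPM in the WT controls for Aire and 58655 to 65826 with the Aire KO label, which do not overlap, 38546 to 56146 and 49964 to 60778 for Fezf2, and 47639 to 53998 and 45263 to 50380 for Chd4. The largest terms of these sums were Cd74, H2-Ab1 and H2-Aa. Their means were 23180, 15285 and 9776 CPM in the WT controls for Aire and 30356, 14648 and 12410 CPM with the Aire KO label. Of the 12, 2 were lower (Epcam and Krt5) and 3 higher (Cd80, H2-Aa and Cd74) for Aire, 0 lower and 1 higher (Krt5) for Fezf2, and 4 lower (Krt8, Foxn1, Cldn3 and Cd74) and 2 higher (Krt5 and Krt14) for Chd4. The part of these shifts in the results on the 8 genes was not tested. In bulk RNA, fewer cells of a kind and less RNA per cell cannot be told apart, which holds for every level and difference given here.

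Of these 8 genes, most were lower in Chd4 cKO libraries and in those labelled Aire KO than in their own controls, while the Fezf2 KO libraries differed from theirs in a mixed way. All 8 passed the filter on low counts in each comparison. Since the 8 were chosen with earlier results of these data known, the shares and medians over all genes set beside them carry no test. For Aire, 6 of 8 were called lower and 0 higher at an edgeR adjusted p under 0.05, where 9.37% of the 14949 genes tested were called lower and 5.73% higher. Their median log2 fold change was -1.50, against -0.00041 over all genes tested. For Chd4, 5 of 8 were lower and 0 higher, where 14.3% of 15182 genes were called in each direction, with a median of -1.18 against 0.0011. For Fezf2, 1 was lower (Ccl20) and 1 higher (Gp2), where 2.4% of 15695 genes were lower and 2.48% higher, and the median of the 8 was -0.12 against -0.03. Ccl20 was the only one of the 8 called lower in all 3 comparisons. Between the Aire and Fezf2 WT groups none of the 8 was called, with edgeR adjusted p values from 0.365 to 0.981, and 0.128% of 15656 genes were called between them.

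**Figure D1:**
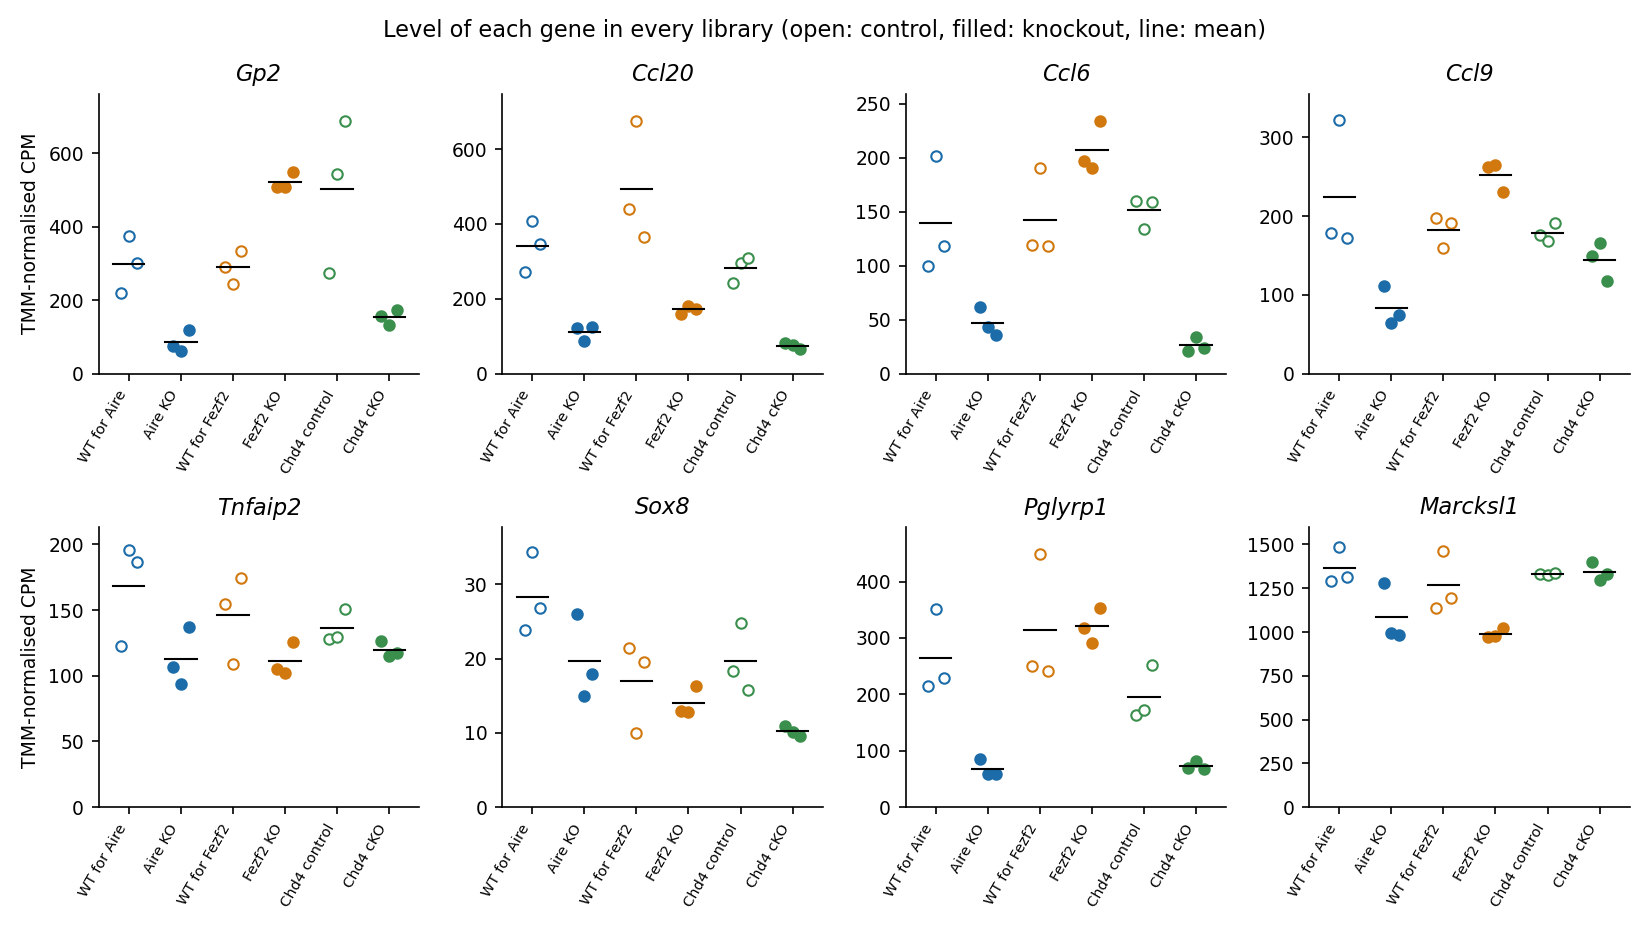
Level of each gene in TMM-normalised CPM (y axis, linear, from 0) in each of the 18 libraries, by group (x axis). Open points are control libraries, filled points knockout libraries and black lines group means, with n = 3 per group. Gp2 is low in Chd4 cKO and in the group labelled Aire KO and high in Fezf2 KO, while Ccl20 is low in all 3 mutant groups.

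Before turning to differences, levels per kilobase of exon (RPKM) in the WT controls for Aire give the order of the genes. Marcksl1 was highest at 849 ± 65.6 RPKM (SD, n = 3), above 99.8% of the genes tested. Ccl20 at 240 ± 47.7 RPKM and Pglyrp1 at 239 ± 67.3 RPKM came next and did not differ beyond their spread. Gp2 stood at 149 ± 38.8 RPKM. Ccl6 at 77.9 ± 30.2 RPKM and Ccl9 at 73.8 ± 27.9 RPKM also overlapped, Tnfaip2 was 33.8 ± 8.0 RPKM, and Sox8, the transcription factor of the set, was lowest at 9.08 ± 1.74 RPKM, above 61.4% of genes tested. The order in the WT controls for Fezf2 was the same. In the Chd4 controls it differed at one place, with Pglyrp1 at 282 ± 70.0 RPKM and Gp2 at 251 ± 106 RPKM ahead of Ccl20 at 199 ± 24.4 RPKM, and the spreads of Gp2 and Ccl20 overlapped. The Chd4 table uses other exon lengths for Ccl6, Ccl9, Tnfaip2 and Pglyrp1, so levels per length are not compared between it and the other tables. One WT library weighs on the Aire controls: WT for Aire B was the highest of its group for 8 of 8 genes, and without it 5 of them were called lower, Tnfaip2 being the one lost. The count was also 5 without WT for Aire C or Aire KO B. Over all genes, 1180 of 15507 were called lower without WT for Aire B. Without WT for Aire C 1167 of 15371 were lower, and without Aire KO B 1114 of 15677. WT for Fezf2 B was the highest of its group for 4 of the 8 genes (Ccl20, Ccl6, Pglyrp1 and Marcksl1) and the lowest for the other 4. Without it 2 of the 8 were called lower and 3 higher, where 981 of 16194 genes tested were lower and 1053 higher. With all libraries those counts over all genes were 376 and 389 of 15695.

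Gp2, the surface receptor for bacterial pili that marks mature M cells, fell in the Chd4 cKO libraries and in those labelled Aire KO, and rose in the Fezf2 KO libraries. In the WT controls for Aire it read 219, 374 and 302 CPM, against 74.8, 62.2 and 118 CPM with the Aire KO label. Every mutant library lay below every control library, as for 17.1% of all genes tested. The mean went from 298 ± 77.6 to 84.8 ± 29.0 CPM (SD, n = 3 each), 3.52-fold lower (log2 fold change -1.82, SE 0.23, edgeR adjusted p = 1.36e-04). In the Chd4 controls Gp2 read 273, 544 and 688 CPM, and in the Chd4 cKO libraries 157, 133 and 173 CPM. The controls were wide, with A less than B and C, and still all above the mutants. Mutants below all controls were seen for 22.1% of genes tested for Chd4. The log2 fold change of Gp2 was -1.70 (SE 0.26, edgeR adjusted p = 0.00102). The Fezf2 comparison went the other way, from 289, 243 and 334 CPM in WT to 509, 508 and 548 CPM in Fezf2 KO. Each of the 3 mutant libraries lay above each control, as for 14.2% of all genes tested. The log2 fold change of Gp2 was 0.85 (SE 0.19, edgeR adjusted p = 0.0344). That call is fragile: without any 1 of the Fezf2 KO libraries the adjusted p was 0.144 (without A), 0.168 (without B) and 0.145 (without C), and without WT A or C it was 0.0911 and 0.0547, while the log2 fold change stayed between 0.74 and 0.97 whichever of the 6 libraries was left out. With the library size alone in place of TMM it was 0.0650.

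The difference between those effects was tested directly in a single fit of all 18 libraries. The Fezf2 effect on Gp2 exceeded the Aire effect by 2.65 on the log2 scale (SE 0.38, edgeR adjusted p = 5.49e-05), where 16.9% of 16169 genes differed between those effects. The Chd4 effect minus the Fezf2 effect was -2.51 (SE 0.38, edgeR adjusted p = 1.43e-04), where 14.9% of genes differed. For the Chd4 effect against the Aire effect the difference was 0.13 (edgeR adjusted p = 0.865), with 16.5% of genes differing. The Chd4 and Aire data come from different sequencing runs, strains and annotations, so run and targeted gene cannot be told apart in a difference that involves Chd4.

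Ccl20, the Ccr6 ligand made by the epithelium over gut follicles, fell in all 3 mutant groups. The WT controls for Aire read 271, 407 and 345 CPM, and those labelled Aire KO read 122, 87.5 and 124 CPM. The Chd4 controls read 243, 294 and 309 CPM and the cKO libraries 80.6, 75.5 and 64.9 CPM. The WT controls for Fezf2 read 440, 676 and 365 CPM and the Fezf2 KO libraries 160, 181 and 173 CPM. In each comparison every mutant library was below every control, a pattern that 17.1% of genes tested showed for Aire, 13.4% for Fezf2 and 22.1% for Chd4. The fall was 3.07-fold for Aire (log2 fold change -1.62, SE 0.17, edgeR adjusted p = 2.98e-05). It was 3.82-fold for Chd4 (-1.93, SE 0.12, edgeR adjusted p = 5.60e-06) and 2.87-fold for Fezf2 (-1.52, SE 0.25, edgeR adjusted p = 0.00848). The 3 effects on Ccl20 did not differ from each other beyond their error, the largest difference being -0.37 between Chd4 and Fezf2 (edgeR adjusted p = 0.426). Without WT for Fezf2 B that difference was -0.68 (edgeR adjusted p = 0.0394). Leaving out any 1 of the Fezf2 KO libraries took the Ccl20 call past the threshold, with adjusted p from 0.0627 to 0.0722 and log2 fold changes from -1.56 to -1.48.

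Beside the Fezf2 values stand those of thymocyte genes, since developing T cells surround mTECs. Of 15 thymocyte genes (T cell receptor subunits, Cd4, Cd8, Rag1, Rag2 and others), 15 had reads and 8 were called lower in Fezf2 KO, with 0 higher. Their summed level was 658 to 1131 CPM in the WT controls for Fezf2 and 422 to 471 in Fezf2 KO, and 222 to 402 in the 4 other groups, and none of the 15 was at 0 in any group. Lck went from 115 to 46.2 CPM and Cd8b1 from 67.8 to 14.3 CPM, with edgeR adjusted p of 0.00821 and 0.00910. The part of these cells in the Ccl20 and Gp2 results was not tested.

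Cortical TEC, fibroblast and endothelial, and B cell lists had reads for every gene in every group. The 10 cortical TEC genes summed to 1769 to 2389 CPM in the WT controls for Fezf2 and 3309 to 3951 in Fezf2 KO, with 0 lower and 1 higher, the protease Ctsl (382 to 1185 CPM, edgeR adjusted p = 0.00517). Ctsl and Ccl25 (698 to 1329 CPM, edgeR adjusted p = 0.0739) were the largest terms in Fezf2 KO. Means of Psmb11 (31.7 to 26.3 CPM), Dll4, Tbata and Ly75 were lower there. Those of Prss16 (133 to 177 CPM), Enpep, Ackr4 and Cxcl12 were higher, and none of these was called. For Aire the cortical TEC genes summed to 1644 to 1751 CPM in WT and 1870 to 3025 in the mutants, with 2 lower (Dll4 and Enpep) and 1 higher (Tbata). For Chd4 the sums were 1819 to 2238 and 1777 to 2636 CPM, with 1 lower (Ccl25) and 2 higher (Ctsl and Ly75). The 8 fibroblast and endothelial genes summed to 182 to 225 CPM in the WT controls for Aire and 347 to 426 with the Aire KO label, where 3 were lower (Col1a1, Col1a2 and Pdgfrb) and 2 higher, the matrix protein gene Dcn (124 to 334 CPM) and the endothelial Pecam1 (8.05 to 21.3 CPM). Their sums were 151 to 195 and 227 to 264 CPM for Fezf2, with 0 called, and 219 to 244 and 247 to 260 CPM for Chd4, with 1 lower (Col1a1). The 6 B cell genes summed to 43.2 to 47.7 and 27.9 to 37.4 CPM for Aire and to 54.5 to 87.0 and 34.2 to 43.9 CPM for Fezf2, with 0 called in either. For Chd4 they summed to 57.2 to 63.3 and 79.6 to 103 CPM, with 1 lower (Cd22) and 1 higher (Cd79b). Of the fibroblast and endothelial genes 6, 6 and 5 passed the filter for Aire, Fezf2 and Chd4, and of the B cell genes 5, 5 and 6. Their part in the results on the 8 genes was not tested.

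Ccl6 and Ccl9, the neighbouring chemokine genes, fell together in the libraries labelled Aire KO and parted in the Chd4 cKO libraries. With Aire as the target, Ccl6 went from 100, 202 and 118 CPM to 61.9, 43.3 and 36.2 CPM. Ccl9 went from 179, 323 and 172 CPM to 111, 64.5 and 74.0 CPM. For both genes all mutants lay below all controls, as for 17.1% of genes tested. The log2 fold changes were -1.57 for Ccl6 (SE 0.25, edgeR adjusted p = 8.11e-04) and -1.43 for Ccl9 (SE 0.24, edgeR adjusted p = 0.00124). With Chd4 as the target, Ccl6 went from 160, 134 and 159 CPM to 21.1, 34.4 and 23.8 CPM, a 5.58-fold fall that is the largest among the 8 genes in any comparison (log2 fold change -2.48, SE 0.17, edgeR adjusted p = 8.26e-06). Ccl9 read 176, 169 and 191 CPM there and 150, 166 and 117 CPM in the cKO libraries, all below the controls but close to them (-0.30, SE 0.12, edgeR adjusted p = 0.0947). Mutants below all controls were seen for 22.1% of genes tested for Chd4. Without Chd4 cKO B, the deepest library, the Ccl9 value was -0.41 with an adjusted p of 0.0489.

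The Chd4 effect on Ccl9 differed from the Aire effect by 1.15 (SE 0.31, edgeR adjusted p = 0.0143). Without WT for Aire B the difference was 0.79 and its adjusted p 0.0529. For Ccl6 the difference was -0.91 (edgeR adjusted p = 0.0984), and without that library it was -1.27 with an adjusted p of 0.0159. With limma voom and all libraries kept, Ccl6 (-0.93, adjusted p = 0.0331) and Ccl9 (1.15, adjusted p = 0.00310) were both called, so these calls depend on that WT library and on the method.

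Both chemokines had higher values in Fezf2 KO than in its WT without passing the test. Ccl6 read 119, 190 and 118 CPM in WT and 197, 191 and 234 CPM in Fezf2 KO (log2 fold change 0.54, SE 0.23, edgeR adjusted p = 0.240). Ccl9 read 197, 160 and 191 CPM in WT and 262, 265 and 230 CPM in Fezf2 KO (0.47, SE 0.19, edgeR adjusted p = 0.206). For both, every mutant library was above every control, as for 14.2% of all genes tested. Without WT for Fezf2 B, Ccl6 was called higher at 0.81 (edgeR adjusted p = 0.00130) and Ccl9 at 0.38 (edgeR adjusted p = 0.0480). The Fezf2 effect exceeded the Aire effect by 2.09 for Ccl6 (edgeR adjusted p = 3.54e-04) and by 1.88 for Ccl9 (edgeR adjusted p = 2.30e-04). Against Chd4, the effect on Ccl6 differed by -3.0 (edgeR adjusted p = 1.42e-05) and that on Ccl9 by -0.73 (edgeR adjusted p = 0.119).

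In the Aire and Fezf2 tables Ccl6 overlaps E230016K23Rik, a noncoding transcript on the opposite strand (chr11:83582056-83623693), which had 290 exon reads over the 6 Aire libraries and 360 over the 6 Fezf2 libraries. The sources used here do not say how strand was handled in counting, so reads from the shared stretch cannot be told apart. Ccl6 itself held 2556 and 4865 exon reads over those libraries. No gene overlapping Ccl6 is listed in the Chd4 table, which holds fewer genes, so this overlap could not be checked there.

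**Figure D2:**
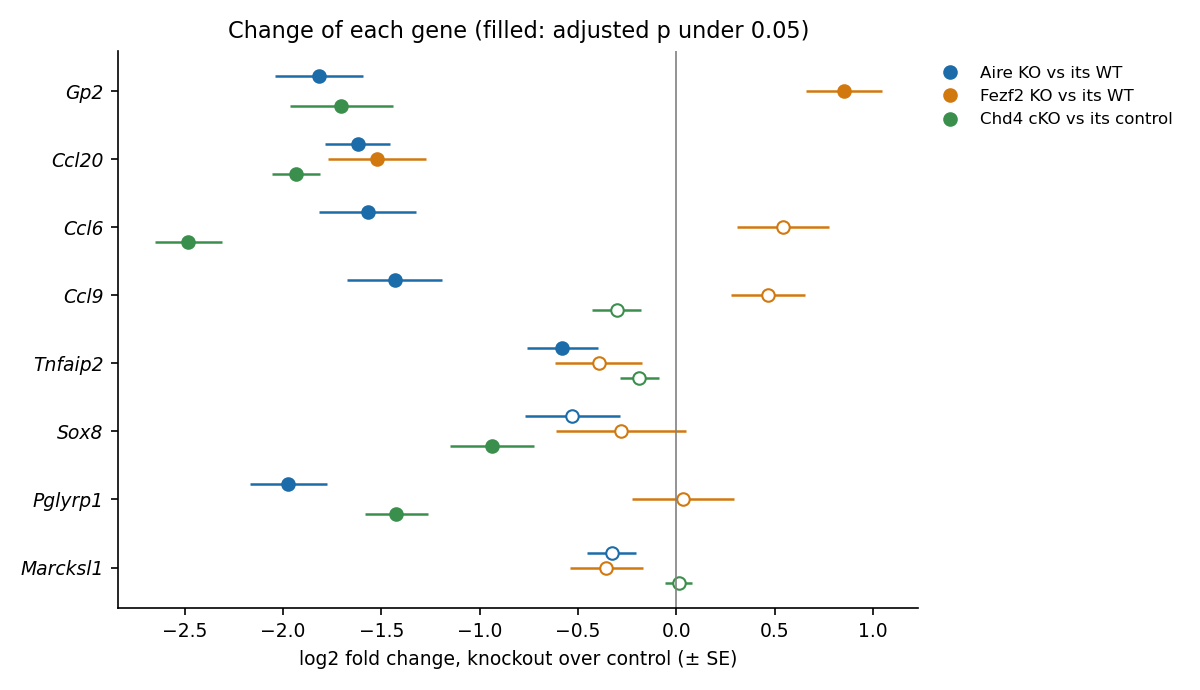
Log2 fold change of each gene (y axis) in the mutants over their own controls (x axis, bars are ± 1 SE, 3 libraries per group). Filled points passed an edgeR adjusted p of 0.05 and open points did not. Gp2, Ccl6 and Ccl9 lie left of 0 for Aire and right of 0 for Fezf2, and Ccl20 lies between -1.93 and -1.52 in all 3 comparisons.

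Pglyrp1, which binds bacterial peptidoglycan and is known from M cells and from neutrophil granules, fell in the Aire and Chd4 comparisons. It read 214, 351 and 229 CPM in the WT controls for Aire, against 85.0, 58.9 and 58.6 CPM in libraries labelled Aire KO. This 3.92-fold fall was the largest of the 8 genes in that comparison (log2 fold change -1.97, SE 0.20, edgeR adjusted p = 2.46e-05). In the Chd4 controls it read 163, 172 and 251 CPM and in the cKO libraries 69.3, 81.5 and 66.8 CPM, again with no overlap (-1.42, SE 0.16, edgeR adjusted p = 1.50e-04). Mutants below all controls were seen for 17.1% of genes tested for Aire and 22.1% for Chd4. Fezf2 gave another picture, with 250, 449 and 241 CPM in WT and 319, 291 and 353 CPM in Fezf2 KO. Those groups overlapped, the log2 fold change was 0.03 (SE 0.26, edgeR adjusted p = 0.961), and its sign turned with the library left out, from -0.12 to 0.39. The Fezf2 effect on Pglyrp1 exceeded the Aire effect by 1.98 (edgeR adjusted p = 3.36e-04), and the Chd4 effect differed from the Fezf2 effect by -1.42 (SE 0.34, edgeR adjusted p = 0.00734).

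Ccl6, Ccl9 and Pglyrp1 are also known from myeloid cells, so a list of 15 myeloid genes was read beside them, 14 of which are in the tables. For Aire, 9 passed the filter, and 5 were lower (Mpo, S100a9, Adgre1, S100a8 and Csf1r) and 1 higher (Cd68). Itgax and Tyrobp did not pass the filter. They had 0 reads in each of the 3 mutant libraries and low means of 0.63 and 2.79 CPM in WT. Ptprc, the pan-leukocyte gene, read 11.7 ± 2.53 CPM in the controls and 12.1 ± 2.91 CPM in the mutants (SD, n = 3 each). The summed level of the list was 1557 to 1672 CPM in WT and 1211 to 1869 in the mutants, which overlap. Lyz2 was the largest term of these sums, at 1002 CPM in WT and 1223 in the mutants (edgeR adjusted p = 0.320). It read 1645 CPM in Aire KO A, the library with the highest sum. The median log2 fold change of the 9 genes tested was -2.06. For Chd4, 5 of 13 were lower, 2 were higher, 14 of 14 had reads in both groups, and the sums were 1686 to 1947 CPM in the controls and 968 to 1350 in the cKO libraries. Lyz2, the most abundant of the named ones, went from 1024 to 542 CPM there (log2 fold change -0.92, edgeR adjusted p = 4.54e-04). For Fezf2, 1 of 12 was lower (Fcer1g) and 1 higher (Fcgr3), with sums of 1605 to 2504 CPM in WT, the highest in library B, and 1341 to 1589 in Fezf2 KO. The part of such cells in the results on Ccl6, Ccl9 and Pglyrp1 was not tested.

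Tnfaip2, a TNF-induced protein that builds membrane extensions, was called lower for Aire alone. The WT controls for Aire read 123, 196 and 187 CPM and the mutants 107, 94.1 and 137 CPM, where WT A lay below mutant C. The log2 fold change was -0.58 (SE 0.18, edgeR adjusted p = 0.0447). That call was lost without Aire KO A (edgeR adjusted p = 0.114) or B (0.195), without WT B (0.185) or C (0.155), and in a joint fit of the Aire and Fezf2 groups (0.115). Its values for Fezf2 were 155, 109 and 174 CPM against 106, 102 and 126 CPM (-0.39, SE 0.22, edgeR adjusted p = 0.366), and without WT for Fezf2 B the value was -0.57 with an adjusted p of 0.0120. Its values for Chd4 were 128, 130 and 151 CPM against 127, 115 and 118 CPM (-0.19, SE 0.10, edgeR adjusted p = 0.180).

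Marcksl1, a membrane and actin-binding relative of Marcks and the most abundant of the 8, was not called in any comparison under the edgeR test with TMM and the filter. It read 1290, 1484 and 1315 CPM in the WT controls for Aire and 1283, 992 and 981 CPM in the mutants (log2 fold change -0.33, SE 0.12, edgeR adjusted p = 0.0991). Without Aire KO A it was called lower, at -0.46 with an adjusted p of 0.0259. It was also called lower with all libraries under library size alone (edgeR adjusted p = 0.0276), limma voom (0.0456) and no filter (0.0381), which brings the lower genes for Aire to 7 of 8. Over all genes, 1732 of 14949, 1448 of 14949 and 2257 of 25540 were called lower in those settings. The median log2 fold change of all genes was -0.11 under library size alone and -0.12 with no filter. The Fezf2 groups read 1140, 1462 and 1196 CPM against 971, 976 and 1022 CPM (-0.35, SE 0.19, edgeR adjusted p = 0.330). Both sets of mutants lay below their controls without overlap, as for 17.1% of genes tested for Aire and 13.4% for Fezf2. The Chd4 groups read 1330, 1326 and 1338 CPM against 1397, 1296 and 1334 CPM, so that controls and mutants were interleaved (0.01, SE 0.07, edgeR adjusted p = 0.917).

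Sox8, the SoxE transcription factor that M cells need to mature and to express Gp2, was called lower in the Chd4 comparison and was not called in the others. It read 18.3, 24.7 and 15.8 CPM in the Chd4 controls and 10.9, 10.1 and 9.64 CPM in the cKO libraries. All mutants lay below all controls, as for 22.1% of genes tested. The mean went from 19.6 ± 4.62 to 10.2 ± 0.656 CPM (SD, n = 3 each), 1.92-fold lower (log2 fold change -0.94, SE 0.21, edgeR adjusted p = 0.00865). The Aire groups read 23.8, 34.3 and 26.8 CPM against 26, 15 and 18 CPM, with overlap through mutant A (-0.53, SE 0.24, edgeR adjusted p = 0.172). The Fezf2 groups read 21.4, 9.95 and 19.5 CPM against 12.9, 12.8 and 16.3 CPM (-0.28, SE 0.33, edgeR adjusted p = 0.686). The effects on Sox8 were not shown to differ between comparisons. It is the gene with the fewest reads here, 428 to 650 exon reads summed over the 6 libraries of a comparison.

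The rest of the M cell program was read from 12 further genes known from those cells. For Aire, 2 of 12 were lower (Clu and Serpinb1a) and 0 higher, with a median log2 fold change of -0.33. Clu, a secreted chaperone, went from 998 to 596 CPM (-0.74, SE 0.15, edgeR adjusted p = 0.00345). For Fezf2, 0 were lower and 2 higher, with a median of -0.18. Clu had values of 981 CPM in WT and 1676 in Fezf2 KO (0.77, SE 0.19, edgeR adjusted p = 0.0461), and Ctsh, a lysosomal protease, 536 and 1042 CPM (0.96, SE 0.21, edgeR adjusted p = 0.0312). For Chd4, 2 were lower and 2 higher, with a median of -0.07. Ctsh read 697 CPM in the controls and 236 in the cKO libraries (-1.56, SE 0.10, edgeR adjusted p = 5.60e-06). Serpinb1a was the other lower gene, and Aif1 and Tnfrsf11b, the soluble decoy for RANKL, were higher. Spib, the Ets factor of the M cell program, was called in no comparison. Its means were 450 and 369 CPM for Aire, 359 and 345 for Fezf2 and 468 and 520 for Chd4, control first.

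The RANK and NF-kB pathway, which starts the M cell program in the gut, was read from 18 genes. In the Aire comparison 17 passed the filter, 1 was lower and 3 were higher, with a median log2 fold change of 0.14. The lower one was the receptor Ltbr (60.3 to 36.8 CPM), and the higher ones were the kinase Map3k14 (63.1 to 91.2 CPM), the adaptor Traf6 (123 to 179 CPM) and the transcription factor Relb (334 to 452 CPM). In the Fezf2 comparison 0 were lower and 1 was higher, the feedback inhibitor Tnfaip3 (127 to 340 CPM, log2 fold change 1.42, edgeR adjusted p = 0.0255), with a median of 0.12. Tnfrsf11a, which encodes RANK itself, read 193 ± 59.1 CPM in WT and 376 ± 53.2 in Fezf2 KO (SD, n = 3 each), short of the threshold (edgeR adjusted p = 0.0629). In the Chd4 comparison 1 was lower (Nfkb2, 511 to 363 CPM) and 2 were higher (Map3k14 and Tnfrsf11b), with a median of 0.06, and Tnfrsf11a read 247 and 294 CPM (edgeR adjusted p = 0.0584).

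The other CC chemokines gave the setting for Ccl20, Ccl6 and Ccl9. In the Aire comparison 14 of 17 passed the filter, 10 were lower and 1 higher, with a median log2 fold change of -1.55. Ccl22, a Ccr4 ligand, went from 856 to 175 CPM (-2.29, SE 0.30, edgeR adjusted p = 1.90e-04) and Ccl5 from 271 to 76.7 CPM (-1.82, SE 0.13, edgeR adjusted p = 2.27e-06). In the Fezf2 comparison 4 of 17 were lower (Ccl17, Ccl27a, Ccl19 and Ccl8) and 0 higher, with a median of -1.07. In the Chd4 comparison 10 of 17 were lower and 3 higher, with a median of -0.97. The 3 higher ones were Ccl21a and Ccl19, which draw Ccr7-bearing thymocytes to the medulla, and Ccl5. Ccl21a went from 1846 to 4741 CPM (1.36, SE 0.12, edgeR adjusted p = 4.31e-05). Of the receptors, Ccr6, which binds Ccl20, fell from 16.4 to 8.29 CPM in the Chd4 comparison (-0.95, SE 0.22, edgeR adjusted p = 0.00850), and Ccr1 was called in none of the 3.

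**Figure D3:**
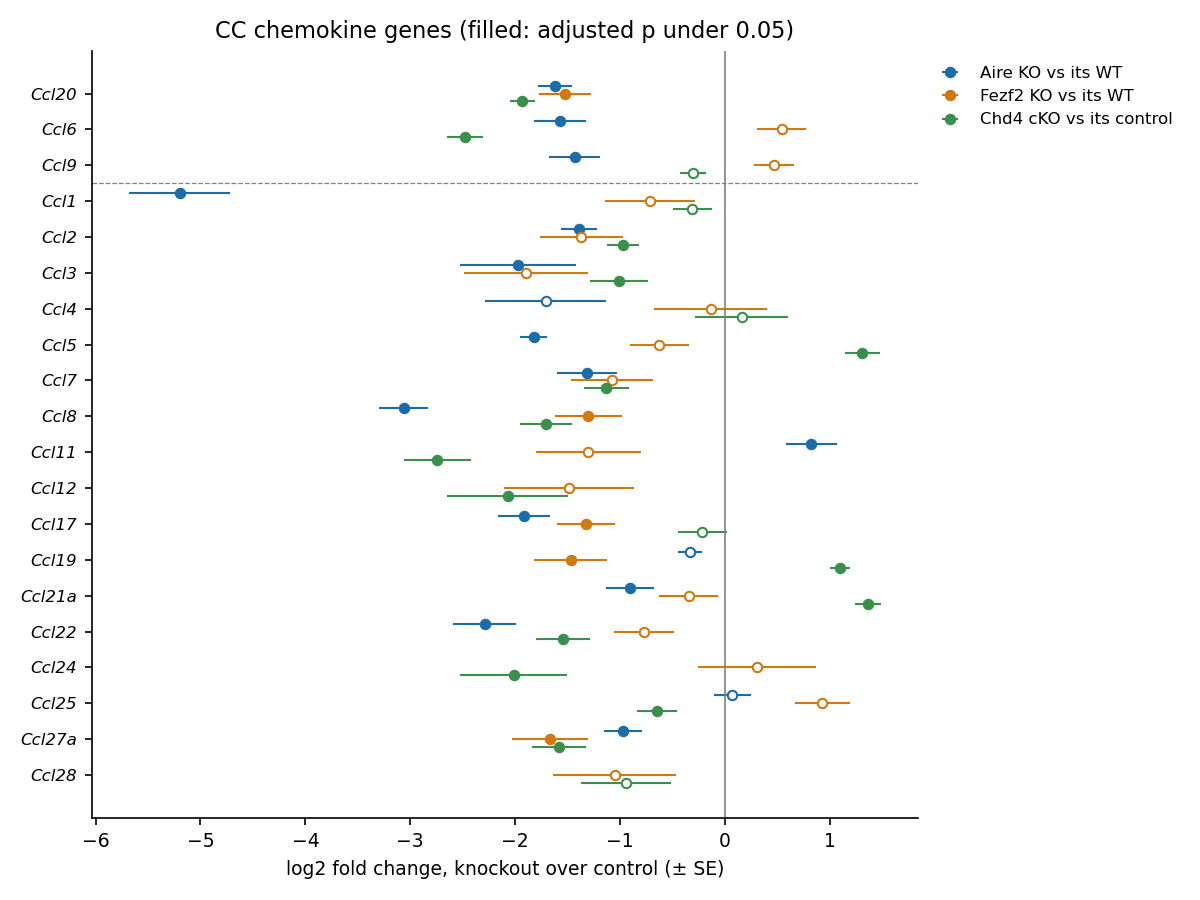
Log2 fold change (x axis, bars are ± 1 SE) of Ccl20, Ccl6 and Ccl9 above the dashed line and of the other CC chemokine genes below it (y axis), in each comparison that tested them, 3 libraries per group. Filled points passed an edgeR adjusted p of 0.05. Most filled points lie left of 0, and Ccl5, Ccl19 and Ccl21a lie right of it for Chd4.

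Relatives of the 8 genes by sequence family gave mixed values. Umod, which encodes the kidney protein most like Gp2, rose from 16.9 to 109 CPM in the Chd4 comparison (log2 fold change 2.68, SE 0.24, edgeR adjusted p = 3.58e-05), where Gp2 fell. Sox9, a SoxE gene like Sox8, rose there from 113 to 167 CPM (0.56, SE 0.11, edgeR adjusted p = 0.00295), and the third SoxE gene, Sox10, read 5.70 ± 0.236 CPM in the controls and 20.6 ± 12.7 in the cKO libraries (SD, n = 3 each). Pglyrp2, a relative of Pglyrp1, fell from 267 to 121 CPM for Chd4 (-1.14, SE 0.12, edgeR adjusted p = 1.28e-04) and from 186 to 121 CPM for Aire (-0.61, SE 0.15, edgeR adjusted p = 0.0146), and was not called for Fezf2 (-0.33, edgeR adjusted p = 0.491). Over 10 such relatives, 2 were lower and 1 higher of 9 tested for Aire, 1 lower (Exoc3l4) and 0 higher of 9 for Fezf2, and 1 lower and 3 higher of 8 for Chd4.

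Marker lists of other mTEC subsets that resemble peripheral cells were counted in the same way. Of 10 tuft cell genes, 0 were lower and 1 higher for Aire, 0 and 0 for Fezf2, and 6 and 0 for Chd4, with medians of 0.46, -0.33 and -0.82. Of the ciliated cell genes tested, 0 of 4 were lower for Aire, 1 of 7 for Fezf2 and 4 of 7 for Chd4, where 1 was also higher. Of the keratinocyte genes, 3 of 10 were lower and 0 higher for Aire, 2 lower and 3 higher of 10 for Fezf2, and 2 lower and 0 higher of 9 for Chd4. Beside these, the 8 microfold genes counted 6 and 0, 1 and 1, and 5 and 0. Whether the lists differ in their response was not tested.

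Across the 18 libraries, each centred on its own comparison, the genes whose level followed Gp2 most closely were ranked among 13783. Among the 10 highest Pearson r values were those of Gsdma and Krt78 (both 0.94), Pigr (0.92), Fuca2 (0.91), Muc16, Cyp2d12, Spef1, Upk3a and Tspan1 (0.895 to 0.905). Since 6 libraries of each comparison share a control group and the mutant effect itself, these values describe the pattern and carry no test. Pigr, the epithelial receptor that carries IgA, had log2 fold changes of -1.57 for Aire (edgeR adjusted p = 8.58e-06), 0.45 for Fezf2 (edgeR adjusted p = 0.303) and -1.69 for Chd4 (edgeR adjusted p = 5.85e-04). Tspan1, a tetraspanin, was called in each comparison, at -0.92, 0.85 and -0.77. Among the other microfold genes, Pglyrp1 ranked 47 (r = 0.84), Ccl6 89 (0.81), Ccl9 223 (0.76), Sox8 799 (0.62), Ccl20 939 (0.60), Tnfaip2 1128 (0.56) and Marcksl1 4801 (0.16). The microfold genes thus did not share one pattern with Gp2. With each library centred on its own group, which removes the mean difference between groups, Ccl6 and Pglyrp1 still had r = 0.85 and Ccl20 and Pglyrp1 0.77, while Gp2 had 0.71 with Tnfaip2, 0.19 with Pglyrp1 and -0.08 with Ccl6.

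The authors' deposited table gave q values on the same side of 0.05 as the edgeR adjusted p for each of the 8 genes in each comparison. For Ccl20 the authors' deposited table gave q = 2.14e-19 for Aire, 5.98e-07 for Fezf2 and 1.22e-45 for Chd4. For Gp2 the q values in the authors' deposited table were 1.28e-05, 5.71e-04 and 2.65e-04. For Tnfaip2 in the Aire comparison the authors' deposited table gave q = 0.0265, and for Sox8 in the Chd4 comparison 0.00539.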

How the data were processed

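The 8 genes and the 14 gene lists were chosen with earlier results of these data known. Per the labels' protocols, RNA of sorted mTECs was extracted on a Maxwell 16 instrument and amplified with the SMART-seq v4 kit. Per the file headers the reads were single, trimmed and barcoded for Ion Torrent, with the Aire and Fezf2 libraries in one run and those of Chd4 in another. DESeq2 and the builds mm10 and GRCm38 are named in the submitters' processing notes, and no aligner is. The deposited values used are counts (total exon reads). The authors' summary table holds log2 levels and p-values with q-values, and other deposited columns give exon length. A further 216 per-library columns were not used. Columns name no replicate.

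Each mutant was compared with its own control over 6 libraries in edgeR 4.0.16 (R 4.3.3), with TMM scaling, the filterByExpr filter, quasi-likelihood F tests and Benjamini-Hochberg adjustment over all genes, called under 0.05. Differences between effects came from 1 fit of 18 libraries. The SE is the size of the log2 fold change over the square root of F. CPM and RPKM were computed from the counts. Named genes are the 8 members, the targeted genes, the 10 genes most correlated with Gp2 (log2 of CPM plus 1; 1 of them is not reported here), and up to 5 called genes per list and direction with the smallest adjusted p, besides genes whose role is explained. In the Chd4 data, date-like symbols (25) were replaced through gene IDs. Simulated counts were drawn with the same scatter (dispersion) for every gene. Recovery of a change of 1 on the log2 scale was 60.8% for Aire, 27.4% for Fezf2 and 74.7% for Chd4. These shares are of the changed genes that passed the filter. Alternatives were RLE factors, library size alone, DESeq2 1.42.0, limma 3.58.1 voom with quality weights, no or a stricter filter, joint fits and leaving out each library. Leaving out libraries in the WT comparison and in the differences between effects was added after seeing the data.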

Additional observations from a re-analysis of the deposited data

Results flagged for a closer look

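The following differences between effects passed the test of the difference itself, in the fit of all 18 libraries with edgeR adjusted p over all genes. The Fezf2 effect exceeded the Aire effect by 2.65 for Gp2, 2.09 for Ccl6, 1.98 for Pglyrp1 and 1.88 for Ccl9, all on the log2 scale. The Chd4 effect exceeded the Aire effect by 1.15 for Ccl9. The Chd4 effect minus the Fezf2 effect was -3.0 for Ccl6, -2.51 for Gp2 and -1.42 for Pglyrp1. Over all 16169 genes, 16.9% differed between the Fezf2 and Aire effects. The shares were 16.5% between Chd4 and Aire and 14.9% between Chd4 and Fezf2. The values of each control and mutant library stand with these genes in the report. The Ccl9 difference between Chd4 and Aire missed the threshold without WT for Aire B (0.79, edgeR adjusted p = 0.0529). The 7 others kept their direction and their side of the threshold when any 1 library was left out and under library size alone or limma voom.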

How the results depend on the processing

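No paired analysis was possible because the count columns name no replicate. Genes called went from 2257 to 3466 with no filter for Aire and from 4339 to 2375 in 1 fit of all 6 groups for Chd4. For Fezf2 they went from 765 to 1274 with DESeq2, 2500 with limma voom, 1387 with no filter, 1460 in 1 fit of 4 groups and 169 to 2034 when leaving out 1 library, with 2034 coming without WT B. Between the WT groups they went from 20 to 383 with DESeq2, 455 with no filter and 0 to 636 when leaving out 1 library. For Fezf2 the 1 lower gene of the 8 became 2 with voom and 0 to 2 when leaving out 1 library, and the 1 higher gene became 0 with library size alone, 3 with voom and 0 to 3 when leaving out 1 library. Genes of the 8 that differed between the Chd4 and Aire effects went from 1, where 16.5% of all genes differed, to 3 with voom (Ccl6 and Marcksl1 added). The cause was not tested. The signs that turned belong to values that passed no test. For the Fezf2 effect minus the Aire effect these were Marcksl1 with library size alone (0.037) and voom (0.054), and Tnfaip2 (-0.029) and Sox8 (-0.0066) with voom. When leaving out 1 library, values ranged from -0.12 to 0.39 for Pglyrp1 in Fezf2 and -0.0096 to 0.045 for Marcksl1 in Chd4. For the Fezf2 effect minus the Aire effect they ranged from -0.11 to 0.38 for Ccl20, -0.030 to 0.48 for Sox8 and -0.12 to 0.095 for Marcksl1, and for the Chd4 effect minus the Aire effect from -0.16 to 0.45 for Gp2. Library size alone moved the median of all genes in the Aire comparison to -0.11 and the lower and higher calls from 1401 and 856 to 1732 and 564.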
